A study of Equus asinus with 6 samples.

Results

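The antioxidant defence genes were followed in the back muscle of donkeys: the superoxide dismutases SOD1, SOD2 and SOD3, catalase (CAT), the glutathione peroxidases GPX1 and GPX3, the peroxiredoxin PRDX3, the thioredoxin reductase TXNRD1, the quinone reductase NQO1 and the heme oxygenase HMOX1. The genes were chosen by symbol from the gene names of the deposited table, and all 10 named genes were listed there, among 20873 genes. All 10 passed the filter on low counts. In muscle of high intramuscular fat (IMF), HMOX1 lay below its level in low IMF muscle in every library. This held in TMM-scaled counts, where it was the only one of the 10 without overlap, and in the deposited FPKM. In the FPKM, SOD1 and NQO1 did not overlap either and lay above. Of all genes tested, 6.1% lay below and 6.86% above without overlap in the counts, and 2.5% below and 10% above in the FPKM. No gene passed the adjusted threshold in the main test.

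Each sample was longissimus dorsi, a back muscle, taken at an age of 24 months from the Guangling breed of donkey (Equus asinus). High IMF muscle and low IMF muscle gave 3 libraries each, and no genotype, treatment or sex is given in the sources used here. Total RNA came from whole tissue that had been put in liquid nitrogen shortly after slaughter. The labels do not say whether the 3 libraries of a group stem from different donkeys, and a p-value here speaks only to the scatter among libraries, which may be technical.

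Superoxide, a by-product of respiration and of oxidase enzymes, is turned into hydrogen peroxide by the superoxide dismutases, and peroxide is then removed by catalase, by glutathione peroxidases and by peroxiredoxins. The reducing power for these steps comes from NADPH through glutathione and thioredoxin. The transcription factor NRF2 (gene NFE2L2), held in check by KEAP1, is known to switch on many of these genes, NQO1, HMOX1 and TXNRD1 among them, and HMOX1 is also under the repressor BACH1. Muscle fibres, with many mitochondria and a heme-rich cytoplasm, are rich in several of these enzymes. SOD3 and GPX3 are secreted, and which cells of the tissue supplied them was not tested.

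The libraries held 39052998 to 47494157 assigned reads in the high IMF group and 44313770 to 46360965 in the low IMF group. The tissue label was borne out by its markers: all 8 muscle fibre markers were listed, and together they measured 103767 to 167282 CPM (counts per TMM-scaled library total) in high and 122855 to 170207 CPM in low IMF muscle. Low IMF replicates 2 and 3 were far more alike than any other pair. The chi-square per gene was 7.62 between them and 115.7 to 559.5 between the other pairs. Although 7.62 is more than counting noise, it does not show whether the 2 stem from different donkeys. Both were kept as libraries. In edgeR's quasi-likelihood test with Benjamini-Hochberg adjustment, the threshold of 0.05 was passed by 0 of 15933 genes tested in the higher and by 0 in the lower direction. At an unadjusted p under 0.05 there were 721 higher (4.53% of genes tested) and 437 lower (2.74%), and limma-voom also called 0 genes after adjustment. The DESeq2 Wald test on the same counts called 114 genes higher (0.68%) and 80 lower (0.477%).

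Levels of different genes were compared on the authors' deposited FPKM, which are scaled by gene length. SOD1, the copper-zinc dismutase of the cytosol, had the highest level, 246.7 ± 22.3 FPKM in high and 182.4 ± 32.1 in low IMF muscle (SD, n = 3 each). It lay above the next gene, PRDX3, in every library, with 161.9 to 271.7 FPKM over the 6 libraries for SOD1 and 109.8 to 151.3 for PRDX3. SOD2 followed with 90.3 to 154.2 FPKM, then GPX3 with 37.4 to 95.2, CAT with 35.5 to 58.0, NQO1 with 31.7 to 53.2, GPX1 with 28.3 to 49.6, HMOX1 with 7.36 to 33.6, TXNRD1 with 7.75 to 13.0 and SOD3 with 3.14 to 13.9 FPKM. From PRDX3 downward, the ranges of neighbours in this order overlapped. Among the 3 dismutases, SOD3 made up 0.791 to 3.59% of the summed FPKM in high and 1.18 to 1.86% in low IMF muscle.

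**Figure D1:**
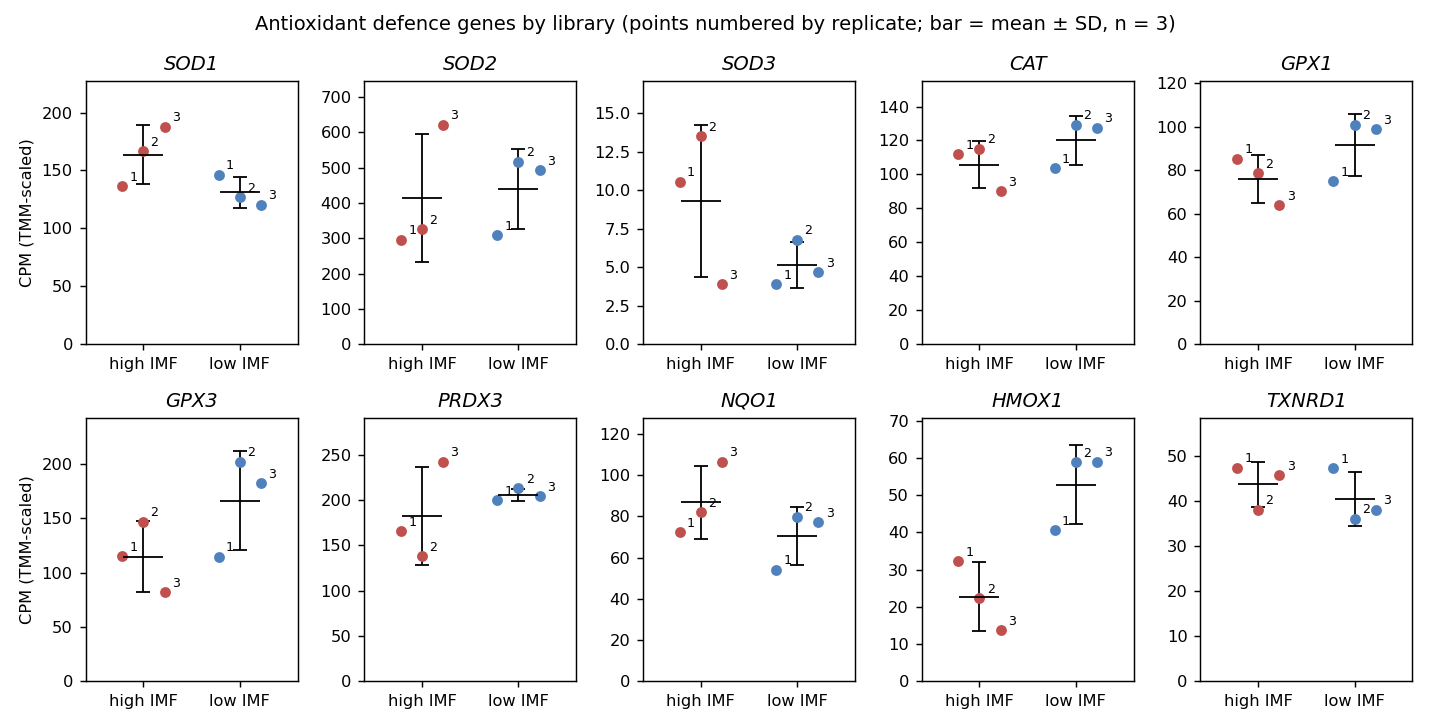
Level of each of the 10 genes in CPM on a linear axis from 0, by library; points are libraries numbered by replicate, and the bar is the mean ± SD of 3 libraries. The HMOX1 points of high IMF muscle (13.6 to 32.2 CPM) all lie below those of low IMF muscle (40.6 to 59.1 CPM), and the points of the other 9 genes overlap between the groups.

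Superoxide removal comes first in the pathway, and none of the 3 dismutases differed between the groups beyond the spread of the libraries. SOD1 measured 136.5, 166.8 and 187.6 CPM in the high IMF libraries and 146.2, 126.6 and 120.5 CPM in the low IMF libraries. Only low IMF replicate 1 lay within the range of the high IMF libraries. The log2 fold, high over low, was 0.32 ± 0.18 (SE), with a 95% interval of -0.11 to 0.75 and an edgeR adjusted p of 0.814. SOD1 was not called under either scaling of the libraries tried. In the deposited FPKM, SOD1 measured 229.0, 271.7 and 239.4 in high and 219.5, 165.9 and 161.9 in low IMF muscle, with no overlap, as for 10% of all genes tested in that direction. With library size only, the median log2 fold of all genes moved to 0.15, against 0.01 in the main fit, and that of SOD1 was 0.44 (unadjusted p = 0.0474, adjusted p = 0.66 in edgeR).

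SOD2, the manganese dismutase of the mitochondrial matrix, measured 295.4, 325.0 and 621.1 CPM in the high IMF libraries and 308.9, 516.7 and 492.3 CPM in the low IMF libraries. The 6 libraries fell into a lower trio (high IMF replicates 1 and 2 and low IMF replicate 1) and an upper trio, across the groups. Its log2 fold was -0.09 ± 0.35 (SE), with an interval of -0.91 to 0.74 and an edgeR adjusted p of 0.979. The same trios held for the sum of the muscle fibre markers. It was 109630, 103767 and 167282 CPM in the high IMF libraries and 122855, 170207 and 163793 CPM in the low IMF libraries. Among these markers the trios held for CKM and MYH2, but not for ACTA1, MB or DES. ACTA1 was at 33034 CPM in high IMF replicate 1 and at 29742 CPM in high IMF replicate 3. The part of these markers in the SOD2 level was not tested. In such tissue samples, fewer cells of a type and less RNA per cell cannot be told apart. The ratio of SOD2 to SOD1 in FPKM was 0.421, 0.379 and 0.644 in high IMF muscle and 0.411, 0.794 and 0.795 in low IMF muscle.

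SOD3, the secreted dismutase that binds to the extracellular matrix, measured 10.6, 13.5 and 3.88 CPM in the high IMF libraries and 3.90, 6.79 and 4.69 CPM in the low IMF libraries. High IMF replicates 1 and 2 lay above every low IMF library, whereas the level in high IMF replicate 3 was under all others. Its log2 fold of 0.86 ± 0.46 (SE), with an interval of -0.21 to 1.94, was the highest of the 10 and did not pass (edgeR adjusted p = 0.767). Without high IMF replicate 3 the log2 fold was 1.23 (edgeR unadjusted p = 0.00608, adjusted p = 0.258), and without high IMF replicate 2 it was 0.49. The DESeq2 Wald test without high IMF replicate 3 called SOD3 (adjusted p = 0.0192), where it called 2.31% of genes higher and 1.33% lower.

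In sum, the 8 fibroblast markers, like SOD3, stood highest in high IMF replicates 1 and 2 and lowest in high IMF replicate 3. Their summed level was 1464, 1252 and 262.7 CPM in the high IMF and 325.4, 719.4 and 775.8 CPM in the low IMF libraries. All 8 had a positive log2 fold, with a median of 0.93. Of these markers, COL1A2 was lowest in low IMF replicate 1 (26.5 CPM, against 35.6 CPM in high IMF replicate 3). SOD3 was nearly as low in low IMF replicate 1 (3.90 CPM) as in high IMF replicate 3 (3.88 CPM). The part of the fibroblast markers in the SOD3 level was not tested. The gene whose pattern over the 6 libraries was closest to that of SOD3 was the collagen gene COL16A1, with 16.4, 19.6 and 6.40 CPM in the high IMF and 7.07, 9.48 and 8.54 CPM in the low IMF libraries. Closeness was measured as the root mean square difference of log2 CPM, each gene centred on its own mean, among 8122 other genes with a symbol and at least 10 CPM, and it was 0.126 for this pair.

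Of the 10 genes, 4 remove peroxide (CAT, GPX1, GPX3 and PRDX3), and none of them passed the test. Their log2 folds, high over low IMF muscle, were negative, as were those of 48.8% of all genes tested, whereas in the wider list of catalase and glutathione peroxidases 4 of 7 were positive, GPX2 (1.92), GPX7 (0.37), GPX8 (0.35) and GPX4 (0.19). CAT, the peroxisomal enzyme that splits hydrogen peroxide, measured 112.1, 115.3 and 90.1 CPM in the high IMF libraries and 103.6, 129.2 and 127.4 CPM in the low IMF libraries. Low IMF replicate 1 lay among the high IMF libraries. The log2 fold was -0.18 ± 0.18 (SE; interval -0.60 to 0.24, edgeR adjusted p = 0.911). GPX1, the main glutathione peroxidase inside cells, measured 85.1, 78.6 and 63.9 CPM in the high IMF and 74.9, 100.7 and 98.8 CPM in the low IMF libraries. GPX1 followed the order of CAT closely, and the pair had the smallest root mean square difference of any 2 of the 10 genes (0.0707 on the log2 scale over 6 libraries). Its log2 fold was -0.27 ± 0.19 (SE; interval -0.72 to 0.18, edgeR adjusted p = 0.867).

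GPX3, the secreted glutathione peroxidase of plasma, measured 115.2, 147.1 and 81.6 CPM in the high IMF libraries and 114.5, 202.5 and 182.5 CPM in the low IMF libraries. Low IMF replicates 2 and 3 lay above all high IMF libraries, and low IMF replicate 1 lay among them. The log2 fold was -0.54 ± 0.29 (SE), with an interval of -1.23 to 0.15 and an edgeR adjusted p of 0.785. It was -0.35 without high IMF replicate 3 and -0.76 without low IMF replicate 1, and neither passed after adjustment (0.684 and 0.506). Smooth muscle and pericyte markers, 8 of 8 listed, summed to 834.1, 1023 and 693.7 CPM in the high IMF and 1005, 1518 and 1361 CPM in the low IMF libraries, with the lowest library and the upper pair the same as for GPX3; their part in it was not tested.

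PRDX3, the peroxiredoxin of mitochondria, measured 165.8, 138.1 and 242.8 CPM in the high IMF libraries and 200.4, 213.6 and 204.5 CPM in the low IMF libraries. The low IMF libraries lay close together, inside the range of the high IMF libraries. The log2 fold was -0.18 ± 0.24 (SE; interval -0.73 to 0.37, edgeR adjusted p = 0.936). Without high IMF replicate 3 the log2 fold was -0.45, with an edgeR unadjusted p of 0.0295 and an adjusted p of 0.34. The gene closest to PRDX3 in pattern was FSD2 (root mean square difference 0.0422), with 139.8, 119.6 and 202.4 CPM in the high IMF and 158.6, 175.0 and 174.5 CPM in the low IMF libraries.

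TXNRD1, the selenium enzyme that recharges thioredoxin in the cytosol, had the narrowest range of the 10 genes on the CPM scale. It measured 47.4, 38.0 and 45.7 CPM in the high IMF libraries and 47.2, 36.1 and 38.0 CPM in the low IMF libraries. The groups overlapped throughout, and the highest library was 1.31 times the lowest. In the deposited FPKM it ran from 7.75 to 13.0, a wider range for its level than that of PRDX3 (109.8 to 151.3). The log2 fold was 0.11 ± 0.17 (SE; interval -0.29 to 0.51, edgeR adjusted p = 0.943).

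NQO1, which reduces quinones by a pair of electrons and is widely used as a readout of NRF2, measured 72.2, 82.1 and 106.7 CPM in the high IMF libraries and 54.0, 79.8 and 77.3 CPM in the low IMF libraries. High IMF replicate 3 was the highest and low IMF replicate 1 the lowest, and the remaining 4 libraries interleaved. The log2 fold was 0.31 ± 0.22 (SE), with an interval of -0.22 to 0.83 and an edgeR adjusted p of 0.867. The deposited FPKM of NQO1 did not overlap, at 47.3, 52.3 and 53.2 in high and 31.7, 40.9 and 40.6 in low IMF muscle, as for 10% of all genes tested in that direction. With library size only its log2 fold was 0.43 (edgeR unadjusted p = 0.0331, adjusted p = 0.648). SOD1 and NQO1 were then the 2 of 10 genes higher at an unadjusted p under 0.05, where 6.39% of all genes tested were, and HMOX1 stayed lower (log2 fold -1.01, unadjusted p = 0.0292), where 1.14% were. Leaving out either of the extreme libraries, high IMF replicate 3 or low IMF replicate 1, brought the log2 fold of NQO1 to 0.13.

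HMOX1, which opens the heme ring and so releases iron and makes biliverdin and carbon monoxide, set high and low IMF muscle apart more than any other of the 10 genes. It measured 32.2, 22.3 and 13.6 CPM in the high IMF libraries and 40.6, 58.9 and 59.1 CPM in the low IMF libraries. Every high IMF library lay below every low IMF library, as for 6.1% of all genes tested (6.86% lay the other way round). The deposited FPKM of HMOX1 did not overlap either, as for 2.5% of genes in that direction. On average HMOX1 was at 22.7 ± 9.31 CPM in high and 52.9 ± 10.6 CPM in low IMF muscle (SD, n = 3 each). The log2 fold was -1.22 ± 0.32 (SE), with an interval of -1.98 to -0.46, so that low IMF muscle had 2.33 times the level of high IMF muscle. The edgeR test gave an unadjusted p of 0.00655 and an adjusted p of 0.522, so HMOX1 did not pass. It was the 1 of 10 genes at an unadjusted p under 0.05 in the lower direction, where 2.74% of all genes tested were.

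In the DESeq2 Wald test HMOX1 passed close to the threshold (log2 fold -1.23, adjusted p = 0.0447). In the authors' deposited table, which stands beside these counts, it was marked down with a log2 fold of -1.23 and an adjusted p of 0.045, among 0.475% of genes so marked, and the next of the 10 genes was SOD3 at 0.639. The deposited calls were 114 genes higher and 80 lower, the same numbers as in the DESeq2 Wald test on these counts. The mark on HMOX1 is thus not a separate call. The DESeq2 call was lost when high IMF replicate 2 was left out (log2 fold -1.22, adjusted p = 0.219), and equally for low IMF replicate 2 (-1.14, 0.409) and low IMF replicate 3 (-1.14, 0.387), with log2 folds close to that on all libraries. It held when high IMF replicate 1 (0.00045), high IMF replicate 3 (0.0361) or low IMF replicate 1 (0.0178) was the library left out.

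The direction of HMOX1 was the same in each of these fits and in the edgeR fits, where its log2 fold ran between -1.56 (high IMF replicate 1 left out) and -0.96 (high IMF replicate 3 left out). HMOX2, the heme oxygenase that is made at a steady level in most cells, measured 60.8, 61.9 and 79.0 CPM in the high IMF and 66.4, 71.7 and 68.2 CPM in the low IMF libraries (log2 fold -0.03, edgeR adjusted p = 0.981). Per gene length, HMOX1 stood to HMOX2 at 1.11, 0.756 and 0.361 in the high IMF libraries and at 1.28, 1.72 and 1.81 in the low IMF libraries, on FPKM. This ratio does not depend on the scaling of the libraries, and it too did not overlap between the groups.

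Macrophages, which clear red cells, are a known source of HMOX1. All 8 macrophage and myeloid markers were listed, and their summed level was 126.0, 68.0 and 30.1 CPM in the high IMF libraries and 35.2, 38.7 and 35.7 CPM in the low IMF libraries. The sum was above that of every low IMF library in high IMF replicates 1 and 2 and below it in high IMF replicate 3, and 7 of 8 log2 folds were positive; their part in the HMOX1 level was not tested. Endothelial markers, 8 of 8 listed, summed to 975.4, 856.1 and 682.1 CPM in the high IMF and 1131, 1043 and 1020 CPM in the low IMF libraries. This sum had the direction of HMOX1 and no overlap, with 1 of 8 log2 folds positive. CLDN5 and ESAM also lay below without overlap, as did 6.1% of all genes tested. CDH5 (183.9 CPM) and KDR (116.3 CPM), however, were highest in high IMF replicate 1, and EGFL7 (265.2 CPM) in high IMF replicate 3. The part of the endothelial markers in the HMOX1 level was not tested. Erythroid markers, 6 of 8 listed and 4 of those (AHSP, ALAS2, HBB and SLC4A1) at 0 in some library, summed to 29.4 CPM in high IMF replicate 1 and to 2.36 and 2.90 CPM in the other high IMF libraries, against 0.875 to 2.71 CPM in the low IMF libraries. The gene closest in pattern to HMOX1 was the leptin receptor LEPR, at a root mean square difference of 0.243, with 9.41, 4.99 and 4.14 CPM in the high IMF and 12.2, 24.1 and 21.3 CPM in the low IMF libraries.

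**Figure D2:**
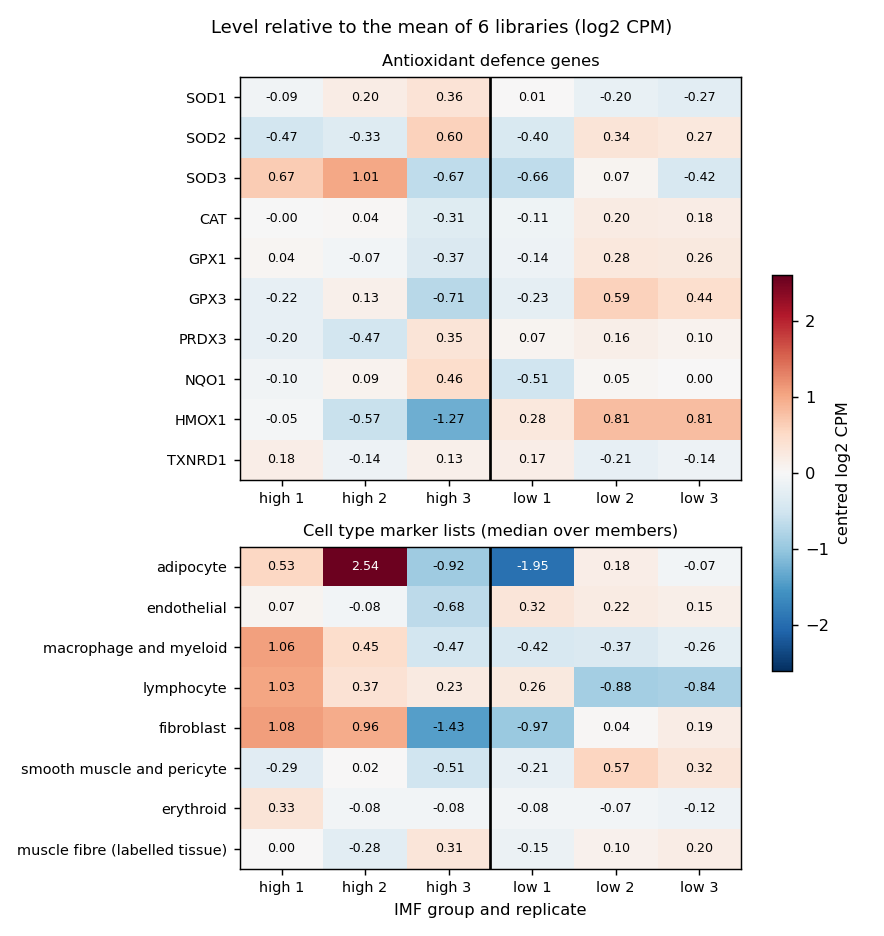
Log2 CPM of each gene minus its mean over the 6 libraries (top), and the median of the same measure over each list of cell type markers (bottom), by library; red is above and blue below the mean, and the black line parts the high IMF libraries on the left from the low IMF libraries on the right. HMOX1 is lowest in high IMF replicate 3 (-1.27) and highest in low IMF replicates 2 and 3 (0.81 each), while SOD3 and the fibroblast markers both stand high in high IMF replicates 1 and 2, and low in replicate 3.

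High IMF replicate 3 held the highest or the lowest level for 9 of the 10 genes. It was highest for SOD1, SOD2, PRDX3 and NQO1 and lowest for SOD3, CAT, GPX1, GPX3 and HMOX1. Over all genes tested the same library held an extreme for 44.2%, close to low IMF replicate 1 with 44.5% and above low IMF replicates 2 and 3 with 22.2% and 19.2%. High IMF replicate 3 also had the lowest summed fibroblast, endothelial and macrophage markers. All 8 adipocyte markers were listed, and their sum, in which PLIN4 had the highest level in every library, was 501.4, 687.4 and 341.3 CPM in the high IMF libraries and 468.9 to 514.9 CPM in low IMF muscle. The sum hides the direction of most of the list: 6 of the 8 log2 folds were positive, where 51.2% of all genes tested were. Their median was 1.55, and FABP4 had -0.51. In edgeR 2 of the 8 were higher at an unadjusted p under 0.05, where 4.53% of all genes tested were, and 0 were lower. Of these markers, 6 (ADIPOQ, PLIN1, LEP, CIDEA, CIDEC and LIPE) were lowest in low IMF replicate 1, where leptin (LEP) was at 0, and the median centred log2 level of the list was also lowest there (-1.95, beside -0.92 in high IMF replicate 3). Lymphocyte markers, 8 of 8 listed, summed to 12.9 to 26.1 CPM in high and 3.04 to 11.8 CPM in low IMF muscle, with no overlap. The part of this makeup in the levels of the 10 genes was not tested.

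The 10 genes did not share a direction. Of the 10 log2 folds, 4 were positive, where 51.2% of all genes tested were, and 6 were negative, where 48.8% were, and their median was -0.13, beside 0.01 for all genes. Between the highest and the lowest library, the levels differed by a median of 0.89 on the log2 scale for the 10 genes, from 0.39 (TXNRD1) to 2.08 (HMOX1), beside 0.83 for all genes tested and 0.69 for those of at least 10 CPM, which SOD3 is not among. For the known NRF2 targets NQO1, TXNRD1 and HMOX1 the log2 folds were 0.31, 0.11 and -1.22, none of them past the adjusted threshold, and the differences between these genes were not tested.

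**Figure D3:**
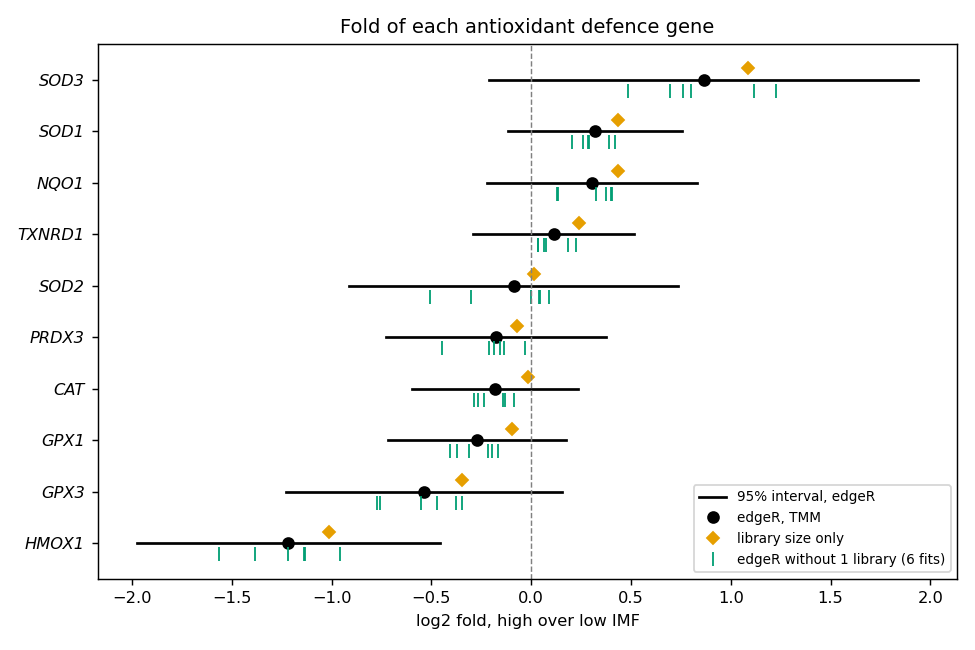
Log2 fold of each gene, high over low IMF muscle, with the estimate and 95% interval of the edgeR fit (black), the fit with library size only (diamonds) and the 6 fits that leave out 1 library each (green ticks). Only the interval of HMOX1 (-1.98 to -0.46) stays clear of 0, and SOD2 is the gene whose estimate changes sign between these fits.

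The wider network of antioxidant genes was read from 10 lists of 130 genes in all, the 10 genes above among them. Of these, 123 were listed and 119 tested. Among the 119, an unadjusted p under 0.05 was reached by 9 in the higher direction (7.56%) and by 7 in the lower (5.88%), beside 4.53% and 2.74% of all genes. After adjustment 0 were higher and 0 lower in edgeR, with adjusted p between 0.431 and 1. The median log2 fold of the network was 0.01, as for all genes. In the list of dismutases and their copper chaperone CCS, 0 of 4 reached an unadjusted p under 0.05 (median log2 fold 0.28), and in that of catalase and glutathione peroxidases 0 of 7 did (median 0.19).

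Regulators of the NRF2 pathway showed no difference beyond the spread: of 11 tested, 0 reached an unadjusted p under 0.05, and their median log2 fold was -0.01. NFE2L2 itself measured 42.6, 64.4 and 55.5 CPM in the high IMF and 44.4, 60.5 and 57.5 CPM in the low IMF libraries, with a log2 fold of 0.00. Its log2 fold stood beside -0.01 for KEAP1 and 0.23 for BACH1, the repressor of HMOX1, and edgeR adjusted p was 0.999, 0.995 and 0.916 for these 3. BACH1 measured 15.1, 26.0 and 24.0 CPM in the high IMF and 15.9, 18.4 and 21.0 CPM in the low IMF libraries.

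Iron handling is coupled to HMOX1 through the iron it frees. FTH1, the heavy chain of the iron store ferritin, measured 600.2, 384.8 and 430.7 CPM in the high IMF libraries and 902.8, 777.8 and 798.2 CPM in the low IMF libraries. The groups did not overlap, as for 6.1% of all genes tested in that direction. The log2 fold of FTH1 was -0.81 (edgeR unadjusted p = 0.0108, adjusted p = 0.525, DESeq2 adjusted p = 0.0555). The light chain of ferritin, FTL, did not share this: its log2 fold was 0.01 with overlap (edgeR adjusted p = 0.993). The iron exporter SLC40A1 and the transferrin receptor TFRC had log2 folds of 0.33 each with overlap (edgeR adjusted p = 0.851 and 0.929). HMOX1 and FTH1 were the 2 of 10 tested genes of quinone, heme and iron handling at an unadjusted p under 0.05, both lower, and 0 were higher. Of all genes tested, 2.74% were lower and 4.53% higher at that threshold in edgeR. FTH1 has many processed copies in mammalian genomes, so its counts are uncertain.

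Glutathione and its enzymes gave few differences. Of 15 tested genes of glutathione synthesis and recycling, 0 reached an unadjusted p under 0.05 (median log2 fold 0.11). GCLM, the modifier subunit of the rate-limiting enzyme of glutathione synthesis, measured 14.0, 11.6 and 13.9 CPM in the high IMF and 16.5, 15.3 and 16.0 CPM in the low IMF libraries. It did not overlap, as for 6.1% of all genes tested in that direction, but was within the spread by test (log2 fold -0.27, edgeR adjusted p = 0.82). The catalytic subunit GCLC had a log2 fold of -0.04. GPX4, which reduces lipid peroxides in membranes, measured 104.0, 145.0 and 163.8 CPM in the high IMF and 104.0, 130.4 and 128.0 CPM in the low IMF libraries.

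Among 10 tested glutathione transferases, MGST1 was higher and GSTA4 and MGST2 lower at an unadjusted p under 0.05. Of all genes tested, 4.53% were higher and 2.74% lower at that threshold in edgeR. The microsomal enzyme MGST1 measured 1.79, 11.8 and 1.22 CPM in the high IMF and 0.146, 0.436 and 0.267 CPM in the low IMF libraries. MGST1 did not overlap, as for 6.86% of all genes tested in that direction (edgeR adjusted p = 0.51, DESeq2 adjusted p = 0.000322). Its highest library, high IMF replicate 2, also had the highest summed adipocyte markers (687.4 CPM), whose part in it was not tested. GSTA4, which clears the lipid peroxidation product hydroxynonenal, measured 18.8, 14.1 and 14.2 CPM in the high IMF and 25.9, 23.01 and 23.5 CPM in the low IMF libraries (log2 fold -0.62, edgeR adjusted p = 0.523).

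Peroxiredoxins, thioredoxins and glutaredoxins had small log2 folds: of 18 tested, 0 reached an unadjusted p under 0.05, and the log2 folds lay between -0.31 and 0.23. PRDX1, PRDX6 and thioredoxin (TXN) had log2 folds of 0.00, -0.09 and -0.18. TXNIP, the inhibitor of thioredoxin, measured 1323, 1138 and 1415 CPM in the high IMF and 568.4, 1953 and 2007 CPM in the low IMF libraries, so that the low IMF group held both extremes. Of 16 tested selenoproteins and genes of selenium supply, SELENOM was higher and SELENOO lower at an unadjusted p under 0.05. Over all genes tested, 4.53% were higher and 2.74% lower at that threshold in edgeR. SELENOM, a selenoprotein of the endoplasmic reticulum, measured 36.5, 38.4 and 65.8 CPM in the high IMF and 22.9, 26.2 and 26.5 CPM in the low IMF libraries (log2 fold 0.90, edgeR adjusted p = 0.523).

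The list of methionine sulfoxide reductases, sestrins and other scavengers held the 2 genes of the network, besides HMOX1, that the DESeq2 Wald test called lower. That test called 0.477% of all genes lower. SESN1, a stress-induced regulator of peroxiredoxin recycling and of growth signalling, measured 108.5, 128.2 and 100.7 CPM in the high IMF and 271.6, 219.2 and 208.9 CPM in the low IMF libraries (log2 fold -1.05 ± 0.19 (SE), edgeR adjusted p = 0.431, DESeq2 adjusted p = 0.00065). MT3, a metallothionein that binds zinc and copper, measured 51.8, 58.8 and 88.1 CPM in the high IMF and 130.3, 127.4 and 140.0 CPM in the low IMF libraries (log2 fold -1.002 ± 0.23 (SE), edgeR adjusted p = 0.51, DESeq2 adjusted p = 0.0227). Metallothionein genes are near-identical copies, so the counts of MT3 are uncertain. On the other side, the mitochondrial carrier UCP2 measured 20.0, 15.6 and 13.4 CPM in the high IMF and 6.003, 9.34 and 9.07 CPM in the low IMF libraries (log2 fold 1.01, edgeR adjusted p = 0.51). SESN3, with overlap, was the other gene of this list higher at an unadjusted p under 0.05, where 4.53% of all genes tested were.

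**Figure D4:**
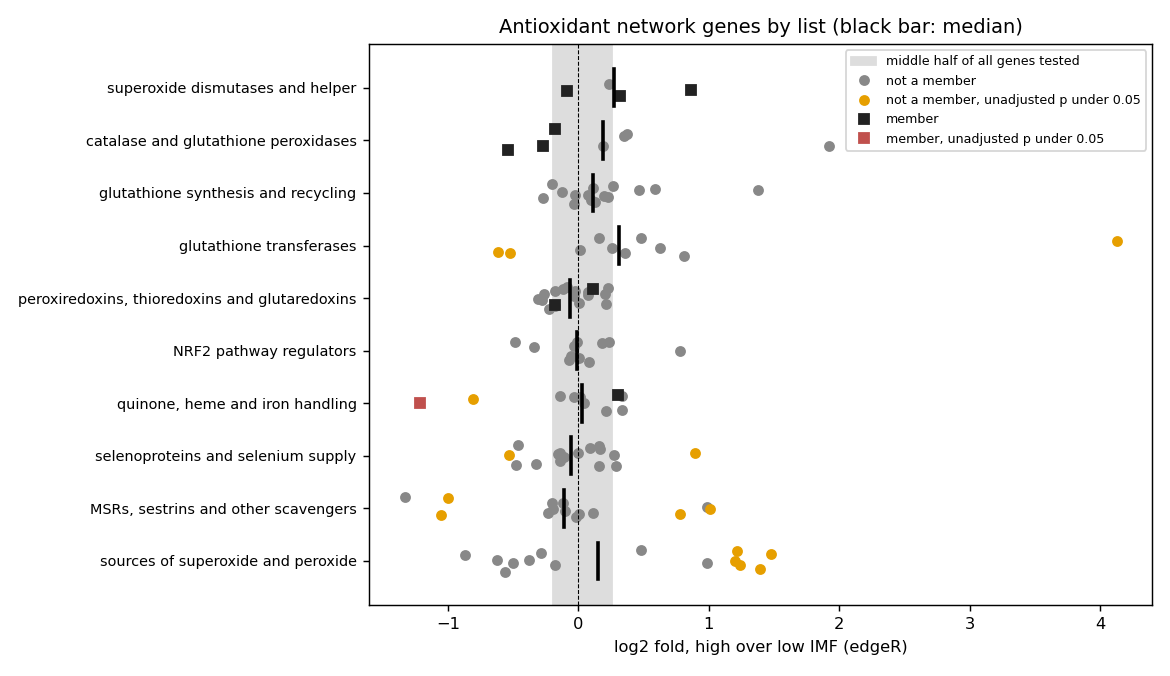
Log2 fold, high over low IMF muscle, of each tested gene of the 10 antioxidant lists; squares are the 10 genes named first, colours mark an unadjusted p under 0.05, black bars are list medians and the grey band is the interquartile range of all genes tested. HMOX1 (-1.22) and FTH1 (-0.81) lie to the left in the heme and iron list, and the 5 coloured points of the list of superoxide sources all lie to the right of 1.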

How the data were processed

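Read counts per gene, whole numbers, were deposited by the authors for 6 libraries, with FPKM values (per gene length and library total) beside them. Per the submitters' processing notes, the aligner HISAT2 was used and the build named is mm9, a mouse build, whereas many protein descriptions in the deposited table name Equus asinus; what counted the reads, with which annotation, strand setting and genome, is not given in the sources used here, so no coordinates are printed and antisense or overlapping genes cannot be told apart. Per the file headers, the table also holds the authors' ratio (fold) of high over low IMF, its log2 value, and p-values with their adjusted form; these are quoted only as the authors' deposited table. Counts in the per-sample files differed from the series table in 0 cells.

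Counts were tested with edgeR 4.0.16 (quasi-likelihood F-test, TMM, filterByExpr defaults, 15933 genes) in R 4.3.3, two-sided, Benjamini-Hochberg adjusted over all genes, threshold 0.05. CPM values are on TMM-adjusted library sizes; log2 levels used an offset of 0.5 CPM. Alternatives were DESeq2 1.42.0, limma-voom (limma 3.58.1), other scalings and filters, a replicate block and leaving out libraries. The edgeR script was tested on simulated data. At these depths a count of 0 allows up to 3 reads, or 0.0632 to 0.0768 CPM, for counting error only.

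The 10 genes, the 10 network lists and the 8 marker lists were chosen with earlier results of these data known. Named genes are the 10, up to 3 of smallest p per list, a fixed set of well known network genes, and for each of the 10 the gene closest in pattern. HMOX2, FTL, SESN3, CYBB and NCF4 were named after their values were seen. Not listed were GSTA1, GSTM1, GSTM2, GSTT1, PRDX2, MT2A and AOX1, and listed but too low to test were SLC7A11, FTMT, DUOX1 and DUOX2. Of the listed genes, 17 were named through a LOC number in the RefSeq gene table of EquAss-T2T_v2 and 6 through an older symbol or the protein description in the file.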

Additional observations from a re-analysis of the deposited data

How the results depend on the processing

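Over 14 alternative fits, the log2 folds of SOD1, SOD3, CAT, GPX1, GPX3, PRDX3, NQO1, HMOX1 and TXNRD1 kept their sign, and that of SOD2 did not. For SOD2, at -0.09, the log2 fold was 0.014 with library size only and 0.021 with low IMF replicates 2 and 3 summed. Leaving out 1 library gave it values between -0.51 (high IMF replicate 3) and 0.087 (high IMF replicate 1), with 0.039 for high IMF replicate 2 and 0.043 for low IMF replicate 2. The DESeq2 Wald test gave 0.099, 0.052 and 0.041 for the same 3 omissions, high IMF replicates 1 and 2 and low IMF replicate 2. On all libraries, that test called 114 genes higher and 80 lower, among them 1 of the 10 genes (HMOX1), and edgeR called 0. Leaving out a library in edgeR gave 0 to 3 genes lower, the 3 without high IMF replicate 1. At an unadjusted p under 0.05, library size only gave 2 of the 10 genes higher in place of 0 and 4 network genes lower in place of 7, and moved the network median log2 fold to 0.15 with that of all genes. Over the left-out libraries, 0 to 1 of the 10 genes were higher and 1 to 2 lower, and 6 to 14 network genes were lower. The DESeq2 Wald test without each library, chosen after seeing the data, called 0 to 1 of the 10 genes higher and 0 to 1 lower. Without high IMF replicate 3 it called 2.31% of all genes higher and 1.33% lower. For the other omissions, in either test, the share of all genes was not taken. Those counts therefore cannot be read as a result about the 10 genes or the network. The causes of these shifts were not tested. The replicate block moved no call: HMOX1 had a log2 fold of -1.28 with it (adjusted p = 0.512). With low IMF replicates 2 and 3 summed, the edgeR log2 fold of HMOX1 was -1.14 (unadjusted p = 0.0208, adjusted p = 0.999). Deviations of same-numbered libraries correlated at 0.221, 0.182 and 0.0341 across genes, and those of differently numbered libraries at -0.232 to 0.229. Within a group these deviations are tied to each other, so the correlations cannot settle whether the replicate numbers pair the libraries. With 3 libraries a group, intervals as wide as that of SOD3 (-0.21 to 1.94) limit what could be detected.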

Other observations

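Enzymes that make superoxide and peroxide are the source side of the same network. Of 14 tested genes of this list (median log2 fold 0.15), 5 were higher in high IMF muscle at an unadjusted p under 0.05 and 0 were lower, beside 4.53% and 2.74% of all genes tested, and none passed after adjustment in edgeR (0.522 to 0.953). Among them were NCF1, NCF4, RAC2 and CYBB, which belong to the NADPH oxidase with which neutrophils and macrophages release superoxide. RAC2 measured 6.56, 3.90 and 4.37 CPM in the high IMF and 2.63, 1.19 and 1.51 CPM in the low IMF libraries, and it was called by the DESeq2 Wald test (adjusted p = 0.044) and not by edgeR (0.522). NCF1 measured 2.03, 1.73 and 2.17 CPM in the high IMF and 1.08, 0.679 and 0.486 CPM in the low IMF libraries. NCF1 has near-identical copies in some mammals, so its counts are uncertain. For NCF1 and RAC2 every high IMF library lay above every low IMF library, as for 6.86% of all genes tested. Macrophage and myeloid markers had a positive log2 fold in 7 of 8 cases, and their summed level ranged from 30.1 to 126.0 CPM in high and from 35.2 to 38.7 CPM in low IMF muscle. Lymphocyte markers had a positive log2 fold in 7 of 7 tested, and their summed level ranged from 12.9 to 26.1 CPM in high and from 3.04 to 11.8 CPM in low IMF muscle, with no overlap; RAC2 is also a gene of lymphocytes. The part of either cell type in the oxidase genes was not tested.

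GPX2, a glutathione peroxidase best known from the gut lining, measured 0.265, 4.54 and 1.62 CPM in the high IMF and 0.438, 0.388 and 0.875 CPM in the low IMF libraries.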
